A study of Drosophila melanogaster with 47 samples.

Results

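Gut progenitors of adult female Drosophila melanogaster were compared after mating and without mating, to ask how mating changes the genes these cells express. The libraries are the 8 of the series' 47 whose labels give cells sorted by FACS as positive for esg: 4 from mated and 4 from unmated females. All females carried esg-Gal4, a driver read from the esg gene that is active in intestinal stem cells and their undifferentiated daughters. Mated females had been kept for 48 h with as many males, and unmated females of matched age and genotype had had no contact with males since eclosion. Each sorted library came from 100 to 150 pooled guts, so the p-values measure the spread between pools and not between single flies. The sources used here give neither the age in days nor the purity of the sort. Of 11128 gene rows, 9025 passed the filter on low counts and were tested, and 2103 did not.

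The lining of the fly midgut is renewed by intestinal stem cells, which divide to give another stem cell and a daughter called the enteroblast, or a precursor of the hormone-secreting enteroendocrine cells. Stem cells carry Delta on their surface, and Delta binds the receptor Notch on the daughter, which commits it to become a nutrient-absorbing enterocyte. Damage and infection speed up stem cell division through the JNK, JAK/STAT and EGF receptor pathways, and in mated females the midgut is known to grow, with sex peptide, juvenile hormone and ecdysone acting on it.

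Total counts ran from 31362803 to 44260161 among mated libraries and from 34284770 to 37253762 among unmated ones. Levels are CPM, counts scaled to a common library size after correction by trimmed means (TMM), and a value with ± is a mean and SD over 4 libraries. Coordinates in parentheses give the chromosome arm, first and last base and strand on BDGP6.54. Fold changes are mated over unmated on the log2 scale with a standard error (SE). A gene was called higher or lower at an adjusted p under 0.05 by edgeR's quasi-likelihood test with Benjamini-Hochberg adjustment over all 9025 genes, and "rose" and "fell" are used of called genes. Amounts by which a gene rose or fell, and single signed values in parentheses, are log2 fold changes. In mated progenitors 1724 genes (19.1%) were called higher and 1903 (21.1%) lower, and the median over all genes was 0.02. By over 2-fold, 63 genes (0.698%) were higher and 899 (9.96%) lower. Of all tested genes, 21.5% had all mated libraries above all unmated ones, and 19.8% had them all below.

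**Figure D1:**
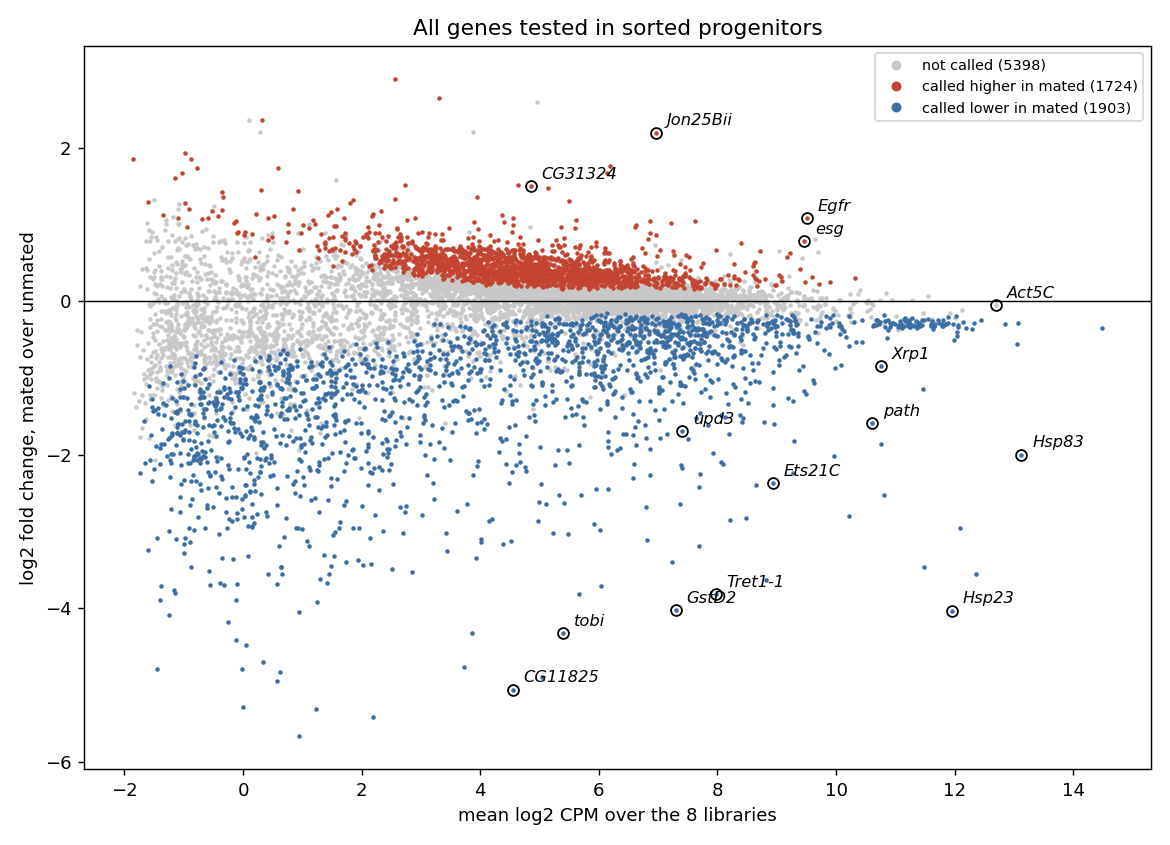
Log2 fold change of each tested gene, mated over unmated progenitors, against its mean log2 CPM, with called genes coloured and a selection labelled. The 899 genes that were lower by over 2-fold reach far below the 63 that were higher by over 2-fold.

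The unmated libraries stood further apart from each other than the mated ones did. On the first principal component, which held 67.8% of the variance, mated libraries 1 to 4 lay at -27.7, -38.3, -34.2 and -36.0, and unmated libraries 1 to 4 at 57.2, 24.0, 11.4 and 43.6. Unmated library 3 was the nearest to the mated group and unmated libraries 1 and 4 were the farthest. Of the 899 genes lower by over 2-fold, unmated library 1 had the highest of the unmated values in 588 and unmated library 3 the lowest in 585. Of the 1724 genes called higher, unmated library 3 had the highest of the unmated values in 1287. Without unmated libraries 1 and 4 together, 417 genes were higher and 885 lower. Reads from transposable elements made up 0.0927% to 0.1003% of the mated libraries and 0.1208% to 0.22% of the unmated ones. In bulk RNA, fewer cells of a type and less RNA per cell cannot be told apart.

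**Figure D2:**
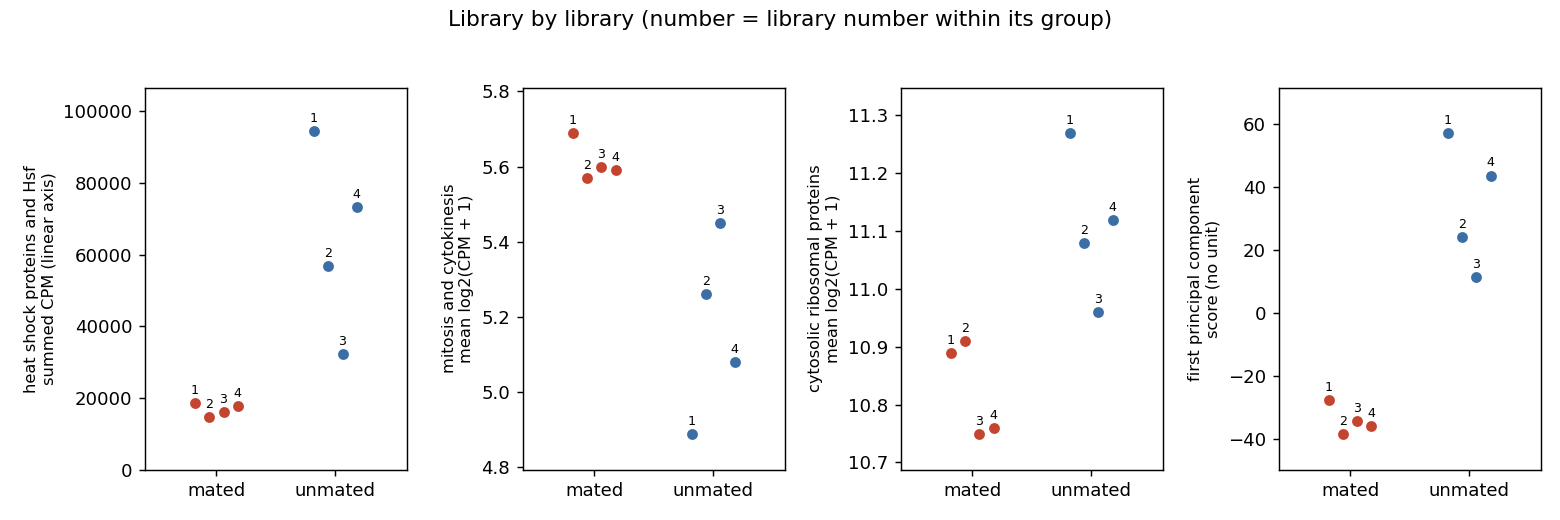
The 4 mated and then the 4 unmated progenitor libraries by measures that include summed heat shock transcripts (CPM), mean level of mitosis genes (mean log2(CPM + 1)) and first principal component. Unmated libraries 1 and 4 lie farthest from the mated group on each measure and unmated library 3 nearest.

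Small changes depended on how the libraries were scaled. The TMM factors ran from 1.05 to 1.12 after mating and from 0.832 to 1.01 without mating. Scaled to library totals alone, the median over all genes moved to 0.26, with 3785 genes higher and 1238 lower. A list median below 0 by less than this shift therefore changes sign, and the second median and counts are given for each such list. The gene lists and the genes named were chosen with earlier results known, so counts of a list's members are set beside the shares of all tested genes (19.1% higher, 21.1% lower) and carry no test of their own. Where 5 or fewer members of a list were called in a direction, all of them are named. Such genes, and some others, were picked after their values were seen.

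The progenitor markers esg and Dl were higher after mating. esg (FBgn0001981), whose zinc finger protein keeps progenitors undifferentiated, had 983, 1051, 778 and 764 CPM in mated libraries 1 to 4, against 428, 595, 627 and 429.7 CPM in unmated libraries 1 to 4. All mated libraries lay above all unmated ones, and the increase (log2 fold change 0.78, SE 0.16, adjusted p = 0.00795) kept its call in every setting tried. The cells were collected by the driver of this gene, so its level is not independent of the sort. Dl (FBgn0000463, 3R, 19302731 to 19326217, minus strand), the Notch ligand of stem cells, had 439, 482, 416 and 353 CPM in mated libraries 1 to 4, against 189, 296, 333 and 182 CPM in unmated libraries 1 to 4. Again no libraries overlapped (log2 fold change 0.76, SE 0.20, adjusted p = 0.02), and the call was lost on leaving out mated library 2 (adjusted p = 0.0513), and without unmated libraries 1 and 4 together (log2 fold change 0.42, adjusted p = 0.0616). In whole guts of the same genotype esg averaged 21.3 CPM after mating and 23 CPM without it, and Dl averaged 7.1 and 8.08 CPM, so that both markers were many times higher in the sorted cells.

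Other progenitor factors did not move together. Of 15 tested identity genes 2 rose (13.3%, esg and Dl) and 3 fell (20%), against 19.1% and 21.1% of all genes. Their median was -0.07, or 0.18 with 5 higher and 1 lower when scaled to library totals. The list with its untested member summed to between 4990 and 6500 CPM after mating and between 4810 and 6720 CPM without mating. These ranges overlapped. Sox21a, a SOX factor needed for enteroblasts to differentiate, had 431, 474, 431 and 429 CPM in mated libraries 1 to 4, against 588, 519.7, 512 and 524 CPM in unmated libraries 1 to 4 (log2 fold change -0.28, SE 0.07, adjusted p = 0.013). Sox100B, another SOX factor of the midgut lineage, averaged 420.3 ± 25.6 CPM after mating and 534 ± 26.4 CPM without mating (log2 fold change -0.35, SE 0.07, adjusted p = 0.00646). In both genes every mated library lay below every unmated one, and both lost their calls under scaling to library totals. peb, the zinc finger gene hindsight that acts in enterocyte differentiation, had 915, 787, 696 and 718 CPM in mated libraries 1 to 4, against 2109, 1269, 1147 and 999 CPM in unmated libraries 1 to 4 (log2 fold change -0.83, SE 0.22, adjusted p = 0.0196), without overlap, and lost its call on leaving out mated library 4 (adjusted p = 0.0513). mira, whose product is an adaptor of asymmetric division, had 955, 1110, 568 and 634 CPM in mated libraries 1 to 4, against 684, 570.4, 548 and 406 CPM in unmated libraries 1 to 4, and missed the threshold (adjusted p = 0.0826). It was called higher by DESeq2 (adjusted p = 0.0444), and by edgeR without mated library 3 or when scaled to library totals (adjusted p = 0.0413 and 0.0147).

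**Figure D3:**
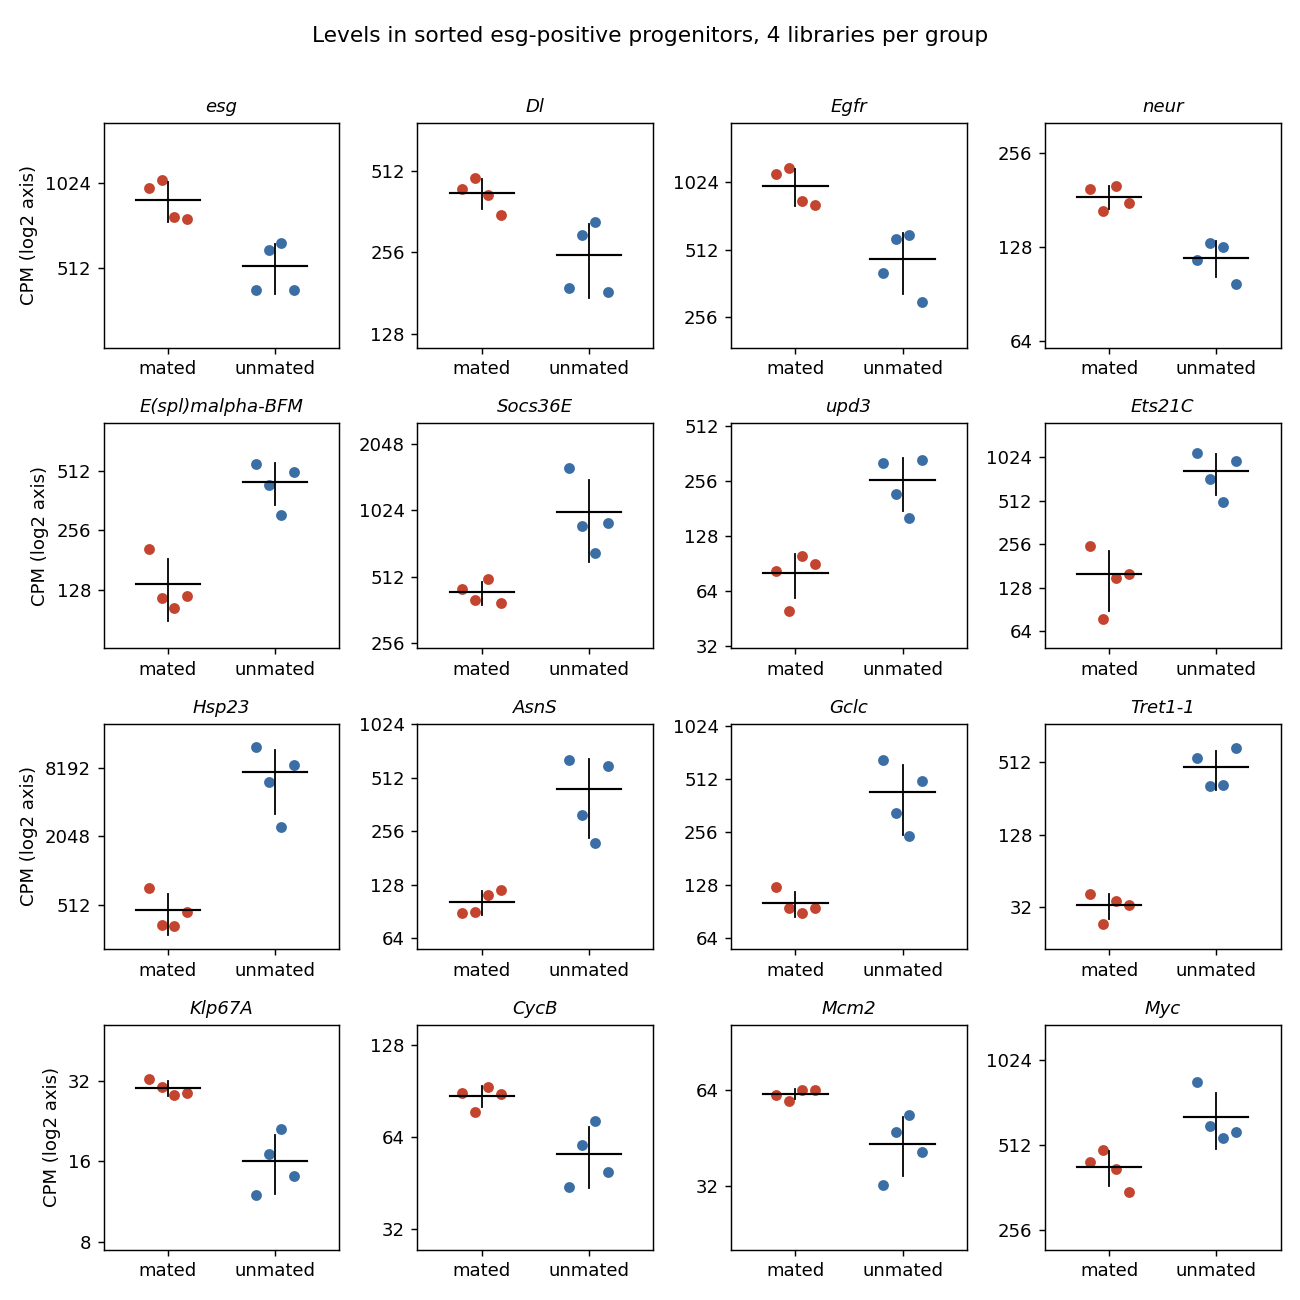
Levels of a selection of genes in the 4 mated (left) and 4 unmated (right) progenitor libraries, in CPM on a log axis, with points for libraries and bars for group means. For esg, Dl and Egfr every mated library lies above every unmated one, and for the heat shock and Notch target genes every mated library lies below.

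Genes of the Notch pathway moved in both directions. Of 24 tested genes 7 rose (29.2%) and 7 fell (29.2%), with a median of -0.15, or 0.09 with 10 higher and 4 lower when scaled to library totals. Genes on the sending side and in receptor maturation were among those that rose. neur, the ubiquitin ligase that activates Delta, had 197, 167, 201 and 177 CPM in mated libraries 1 to 4, against 116, 131, 128 and 97.1 CPM in unmated libraries 1 to 4, with no overlap (log2 fold change 0.65, SE 0.10, adjusted p = 0.00382). O-fut1, the enzyme that fucosylates Notch, rose by 0.68 (SE 0.13, adjusted p = 0.00646), and spdo, a membrane protein that acts on Notch trafficking in asymmetric division, by 0.58 (adjusted p = 0.00731). Su(H), the DNA-binding protein through which Notch acts, rose too, at 18.4 ± 0.663 CPM after mating and 13.6 ± 1.49 CPM without mating (log2 fold change 0.43, SE 0.10, adjusted p = 0.00956). The receptor gene N itself had 394, 384, 299 and 305 CPM in mated libraries 1 to 4, against 352, 342, 344 and 300 CPM in unmated libraries 1 to 4, with overlapping groups (adjusted p = 0.741), and its small fold change of 0.05 turned below 0 on leaving out mated library 1, mated library 2 or unmated library 4, whereas it was 0.28 and called when scaled to library totals (adjusted p = 0.0401). Without mated library 2, 4 members of the pathway were higher.

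Genes that Notch activates were among those that fell. E(spl)malpha-BFM (FBgn0002732, 3R, 26010893 to 26011568, plus strand), a Bearded family target of Notch, had 206, 116, 103 and 119 CPM in mated libraries 1 to 4, against 558, 437, 307 and 504 CPM in unmated libraries 1 to 4. Mated library 1 was the highest of its group and still below the lowest unmated library (log2 fold change -1.73, SE 0.26, adjusted p = 0.00345). E(spl)mbeta-HLH (FBgn0002733, 3R, 26005046 to 26006023, minus strand), a repressor of the Enhancer of split complex, had 289, 231, 192 and 178 CPM in mated libraries 1 to 4, against 896, 586, 366 and 799 CPM in unmated libraries 1 to 4, again without overlap (log2 fold change -1.57, SE 0.28, adjusted p = 0.00543). E(spl)m3-HLH, of the same complex, fell by 0.51 (SE 0.11, adjusted p = 0.00929). kuz, the metalloprotease that cleaves Notch after ligand binding, was at 264 ± 19 CPM after mating and 357 ± 52.8 CPM without mating (log2 fold change -0.43, SE 0.10, adjusted p = 0.013), and its call was lost when scaled to library totals. kuz overlaps 6 other annotated genes on its strand.

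The EGF receptor gene was higher while feedback genes of its pathway were lower. Egfr (FBgn0003731, 2R, 21522420 to 21559977, plus strand) had 1113, 1182, 844 and 811 CPM in mated libraries 1 to 4, against 403, 572, 595 and 299 CPM in unmated libraries 1 to 4. All mated libraries lay above all unmated ones (log2 fold change 1.08, SE 0.23, adjusted p = 0.00916). Raf, the kinase downstream of Ras, was the only other of 21 tested members that rose, by 0.38 (SE 0.09, adjusted p = 0.0142). The 9 members that fell included aos and Mkp3, inhibitors that the pathway itself induces. aos, a secreted antagonist of the ligands, had 55.8, 47.5, 51.3 and 43.8 CPM in mated libraries 1 to 4, against 157, 83, 77.5 and 84.3 CPM in unmated libraries 1 to 4 (log2 fold change -1.02, SE 0.22, adjusted p = 0.0102), and unmated library 1 stood far above the rest of its group. Mkp3, the phosphatase of the pathway's MAP kinase, was at 85.6 ± 7.82 CPM after mating and 159.8 ± 33.5 CPM without mating (log2 fold change -0.90, SE 0.14, adjusted p = 0.00335). rho, the protease that releases EGF ligands, was low throughout and averaged 2.96 ± 1.16 CPM after mating and 14.2 ± 7.39 CPM without mating (log2 fold change -2.26, SE 0.41, adjusted p = 0.00551). rho lies within the gene Ptp61F, on the opposite strand, and the sources used here give no strand setting for the counting. The ligand gene vn fell by 0.84 and pnt, the ETS factor of the pathway, fell by 0.53, each losing its call when scaled to library totals. vn lost its call also on leaving out mated library 1, 2 or 4 or unmated library 1 or 4 (adjusted p from 0.0724 to 0.116). The same held under upper quartile scaling and with no filter (adjusted p = 0.0506 and 0.0503). Without unmated libraries 1 and 4 together the log2 fold change of vn was -0.36 (adjusted p = 0.394). The list's median was -0.17, or 0.08 with 5 higher and 4 lower when scaled to library totals.

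Genes of mitosis were higher after mating. Of 54 tested genes 39 rose (72.2%) and 3 fell, with a median of 0.53. CycB3, a cyclin of mitosis, had 27.4, 30.2, 27.1 and 25.3 CPM in mated libraries 1 to 4, against 11.1, 17.4, 22.4 and 13.5 CPM in unmated libraries 1 to 4. The mated libraries were close to each other, while the unmated ones spread over a 2-fold range with library 3 nearest to the mated group (log2 fold change 0.77, SE 0.19, adjusted p = 0.0149). barr, a condensin subunit, had 61.1, 54.7, 49.6 and 52.4 CPM in mated libraries 1 to 4, against 21.4, 34.8, 40.3 and 26.9 CPM in unmated libraries 1 to 4 (log2 fold change 0.82, SE 0.18, adjusted p = 0.00921). Klp67A, a kinesin of the spindle, averaged 30 ± 1.88 CPM after mating and 16 ± 3.96 CPM without mating (log2 fold change 0.90, SE 0.16, adjusted p = 0.00479), and Cap-G, another condensin subunit, rose by 0.77 (SE 0.16, adjusted p = 0.00846). CycB, the B-type cyclin, rose by 0.63 (adjusted p = 0.0117). The 3 that fell were pbl, the exchange factor of the contractile ring (-0.57, adjusted p = 0.00375), cnn, a centrosome scaffold (-0.26, adjusted p = 0.0375), and mars, a spindle protein (-0.94, adjusted p = 0.0272).

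The mitosis genes followed the order of the unmated libraries. Their mean level was 5.69, 5.57, 5.60 and 5.59 log2(CPM + 1) in mated libraries 1 to 4 and 4.89, 5.26, 5.45 and 5.08 in unmated libraries 1 to 4. The groups did not overlap, and the step between the lowest mated and the highest unmated library was smaller than the range within the unmated group. Leaving out mated library 1 gave 25 called members, leaving out unmated library 4 gave 23, and leaving out unmated libraries 1 and 4 together gave 16. Among the members that fell, calls were lost for cnn on leaving out mated library 1, 2 or 4 or unmated library 1, 3 or 4 (adjusted p from 0.0514 to 0.101), and mars on leaving out mated library 2, 3 or 4 (adjusted p from 0.0615 to 0.0661), and cnn also lost its call when scaled to library totals.

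The main mitotic kinase missed the threshold, and entry regulators moved in part. Cdk1 had 30.8, 26.9, 28 and 29.7 CPM in mated libraries 1 to 4, against 10.3, 19.3, 27.5 and 15.1 CPM in unmated libraries 1 to 4, with unmated library 3 inside the mated range (log2 fold change 0.67, SE 0.25, adjusted p = 0.0564). Cdk1 was called higher by DESeq2 (adjusted p = 0.0209), and by edgeR with upper quartile scaling, without unmated library 3 or when scaled to library totals (adjusted p = 0.0495, 0.00464 and 0.0245). stg, the Cdc25 phosphatase that sets the pace of stem cell mitosis in the gut, had 21.6, 20, 29.6 and 29.7 CPM in mated libraries 1 to 4, against 16.1, 17.6, 19.7 and 14.3 CPM in unmated libraries 1 to 4 (log2 fold change 0.58, SE 0.16, adjusted p = 0.0202). Mated libraries 3 and 4 were higher than mated libraries 1 and 2, and the lowest mated library was just above unmated library 3. Of 20 tested regulators of G1 and S phase 9 rose and 2 fell, with a median of 0.22. Cdk2, the partner of Cyclin E, rose by 0.66 (adjusted p = 0.0242), and Rbf2, a retinoblastoma family repressor, by 0.88 (SE 0.22, adjusted p = 0.0154). CycE itself was at 29.3 ± 4.87 CPM after mating and 24.8 ± 4.8 CPM without mating and did not pass (adjusted p = 0.231). Of the 2 that fell, fzr, the APC activator that ends mitotic cycling, fell by 0.50 (adjusted p = 0.013), and E2f1, the S phase transcription factor, fell by 0.18 (adjusted p = 0.0377). Scaled to library totals, fzr lost its call and E2f1 turned to 0.06. Single libraries ended the calls of stg on leaving out mated library 3 or 4 or unmated library 4 (adjusted p from 0.0508 to 0.0559), Cdk2 on leaving out mated library 1 or 4 or unmated library 1 or 4 (adjusted p from 0.0513 to 0.0573), and E2f1 on leaving out mated library 1, 2, 3 or 4 or unmated library 1, 2 or 4 (adjusted p from 0.0645 to 0.105). Leaving out mated library 4 gave 5 members higher, leaving out unmated library 4 gave 4, and leaving out unmated libraries 1 and 4 together gave 3.

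DNA replication genes had small increases, whose calls depended on single libraries. Of 45 tested genes 18 rose (40.0%) and none fell, with a median of 0.36, or 0.58 with 33 higher when scaled to library totals. Mcm2, a subunit of the replicative helicase, had 61.8, 59, 64.1 and 63.9 CPM in mated libraries 1 to 4, against 32.3, 47.2, 53.4 and 40.9 CPM in unmated libraries 1 to 4 (log2 fold change 0.52, SE 0.13, adjusted p = 0.0171). RfC38, a subunit of the clamp loader, rose by 0.63 (adjusted p = 0.0233) and Cdc6, a licensing factor, by 0.68 (adjusted p = 0.0323). PCNA, the sliding clamp, was at 97.6 ± 14.1 CPM after mating and 85.9 ± 12.7 CPM without mating, with overlapping groups (adjusted p = 0.276). Leaving out mated libraries 1 to 4 in turn gave 7, 7, 7 and 6 called members. Leaving out unmated library 2 gave 11, unmated library 3 gave 30, unmated library 4 gave 4, and unmated libraries 1 and 4 together gave 2. Calls were lost for RfC38 on leaving out mated library 4 or unmated library 4 (adjusted p from 0.0527 to 0.0625), and Cdc6 on leaving out mated library 1, 2, 3 or 4 or unmated library 1, 2 or 4 (adjusted p from 0.0522 to 0.0841).

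The heat shock genes fell almost as a body. Of 23 tested heat shock protein genes and Hsf, 22 fell (95.7%) and none rose, with a median of -2.43. The transcripts of the list summed to 18600, 14600, 16000 and 17700 CPM in mated libraries 1 to 4, against 94600, 56800, 32300 and 73200 CPM in unmated libraries 1 to 4. Every mated library was below every unmated one, and the unmated libraries spread widely. In whole guts of the same genotype, scaled on their own, 20 of these genes summed to between 2500 and 4020 CPM after mating and between 3740 and 4820 CPM without mating, so that sorted cells of both groups held far more heat shock RNA than whole guts. Hsp26 (FBgn0001225, 3L, 9376418 to 9377427, minus strand), a small heat shock protein, had 1160, 673, 650.2 and 812 CPM in mated libraries 1 to 4, against 15880, 8174, 3151 and 11570 CPM in unmated libraries 1 to 4 (log2 fold change -3.56, SE 0.47, adjusted p = 0.00275). Hsp83, the fly Hsp90, was at 3567 ± 812 CPM after mating and 14260 ± 6041 CPM without mating (log2 fold change -2.0, SE 0.32, adjusted p = 0.00409). Hsp68, of the inducible Hsp70 class, fell by 2.96 (SE 0.40, adjusted p = 0.00286), DnaJ-1, its Hsp40 partner, fell by 2.53 (adjusted p = 0.00344), and stv, the BAG co-chaperone starvin, fell by 2.83 (adjusted p = 0.00487). Hsp27 fell by 3.46 and Hsp23 fell by 4.03 (adjusted p = 0.00259 for each). The nearly identical Hsp70 copies fell too, but how the counting divided reads among them was not measured here.

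The constitutive chaperone and the regulator of the family fell by less. Hsc70-4, the constitutive cytosolic Hsp70, had 7076, 6790, 6722 and 6905 CPM in mated libraries 1 to 4, against 11540, 9861, 8658 and 10410 CPM in unmated libraries 1 to 4. The groups did not overlap and the fold change was small (log2 fold change -0.56, SE 0.09, adjusted p = 0.00344). The transcription factor Hsf, which turns on the stress-induced genes, was at 92.2 ± 5.86 CPM after mating and 152 ± 32.4 CPM without mating (log2 fold change -0.72, SE 0.14, adjusted p = 0.00702). Hsp67Ba (FBgn0001227, 3L, 9377802 to 9379534, minus strand) was near 0 in the mated libraries, with 2.1, 0.511, 0.375 and 0.616 CPM in mated libraries 1 to 4, against 49.2, 14.3, 5.24 and 34 CPM in unmated libraries 1 to 4 (log2 fold change -4.76, SE 0.81, adjusted p = 0.00498). asRNA:CR43481 (FBgn0263492, 3L, 9378160 to 9381119, plus strand), an antisense RNA at the same place on the other strand, had 3.97, 1.59, 1.21 and 1.57 CPM in mated libraries 1 to 4, against 122, 39.2, 11.8 and 81.2 CPM in unmated libraries 1 to 4 (log2 fold change -4.89, SE 0.75, adjusted p = 0.00382), and reads of this pair cannot be told apart without a stated strand setting. Without unmated libraries 1 and 4 together, 19 of the list were still lower, with a median of -1.90, and without TMM the list median was -2.15.

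Some genes of the endoplasmic reticulum stress response were lower, at a share near that of all genes. Of 24 tested genes 6 fell (25%) and 1 rose (4.17%), against 21.1% and 19.1% of all genes. The median was -0.05, or 0.19 with 7 higher and 4 lower when scaled to library totals. Hsc70-3, the chaperone BiP, had 811, 625, 754 and 798 CPM in mated libraries 1 to 4, against 3005, 2082, 1512 and 4259 CPM in unmated libraries 1 to 4 (log2 fold change -1.86, SE 0.29, adjusted p = 0.00383). Xbp1, the transcription factor made active by Ire1 splicing, was at 513 ± 15.2 CPM after mating and 1045 ± 268 CPM without mating (log2 fold change -1.03, SE 0.16, adjusted p = 0.00362). Gp93, the Hsp90 of this compartment, fell by 0.82 (SE 0.14, adjusted p = 0.00414), and PEK, the kinase PERK, fell by 0.75 (adjusted p = 0.00543). Ire1 fell by 0.35 (adjusted p = 0.0128) and lost its call when scaled to library totals, while Atf6, the third sensor, had a log2 fold change of 0.10 and did not pass (adjusted p = 0.207). sip3, the ubiquitin ligase Hrd1, was the only member that rose (0.29, adjusted p = 0.0231), and lost its call on leaving out mated library 3 or 4 or unmated library 4 (adjusted p from 0.0557 to 0.0619).

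Several genes of the amino acid response were lower. Of 18 tested genes 10 fell and 2 rose, with a median of -0.24, or 0.00 with 5 higher and 5 lower when scaled to library totals. AsnS, the asparagine synthetase, had 88.7, 89.3, 112 and 119.5 CPM in mated libraries 1 to 4, against 645, 316, 219 and 596 CPM in unmated libraries 1 to 4 (log2 fold change -2.12, SE 0.33, adjusted p = 0.00396). It overlaps chb on the same strand. Gadd45, a stress-induced gene, fell by 1.92 (SE 0.33, adjusted p = 0.00507) and Xrp1, a stress transcription factor, fell by 0.84 (adjusted p = 0.0035). crc, the fly ATF4, was at 443 ± 5.77 CPM after mating and 529 ± 11.6 CPM without mating, a fold change of -0.26 (SE 0.05, adjusted p = 0.00702) that lost its call when scaled to library totals. The 2 that rose were Gcn2, the kinase that senses uncharged tRNA (0.39, adjusted p = 0.0228), and scyl, an inhibitor of TOR (0.57, adjusted p = 0.0086). Gcn2 lost its call on leaving out mated library 1 or 4 or unmated library 2 or 4 (adjusted p from 0.0517 to 0.0615). With mated library 1, mated library 2 or unmated library 4 left out, 6 were lower. Of 20 aminoacyl tRNA synthetases 7 fell and none rose (median -0.15, or 0.09 with 2 higher and 2 lower when scaled to library totals), led by AspRS (-0.81, adjusted p = 0.00267) and AsnRS (-0.69, adjusted p = 0.00335). None of 32 proteasome subunits was called by edgeR or DESeq2 (median 0.03, with 1 higher and 0 lower by edgeR at p under 0.05 before adjustment), and 8 rose when scaled to library totals.

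Detoxification enzymes were lower in large part. Of 32 tested glutathione transferases 19 fell (59.4%) and 3 rose, with a median of -0.85. GstE7 (FBgn0063493, 2R, 18406924 to 18407688, plus strand) had 12.5, 8.75, 7.39 and 8.26 CPM in mated libraries 1 to 4, against 149.6, 66.7, 48.1 and 221 CPM in unmated libraries 1 to 4 (log2 fold change -3.71, SE 0.49, adjusted p = 0.0028). Unmated libraries 1 and 4 were the highest and every mated library was below the lowest unmated one. GstD2 fell by 4.02 (SE 0.44, adjusted p = 0.0021) and GstE1 fell by 2.85 (adjusted p = 0.00293). The GstD and GstE genes lie in clusters of related copies, and how far they share reads was not measured. The 3 that rose were GstO1 (0.48, adjusted p = 0.00543), GstE13 (0.30, adjusted p = 0.0213) and GstZ1 (0.51, adjusted p = 0.0216), and calls were lost for GstE13 on leaving out mated library 1 or 2 or unmated library 4 (adjusted p from 0.0542 to 0.0567), and GstZ1 on leaving out mated library 2 or 4 or unmated library 4 (adjusted p from 0.0526 to 0.0578).

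Of 54 tested cytochromes P450, oxidases that act on toxins and hormones, 27 fell and 5 rose, with a median of -0.65. Cyp6a20 averaged 8.14 ± 1.24 CPM after mating and 38.1 ± 19.6 CPM without mating (log2 fold change -2.23, SE 0.33, adjusted p = 0.00344). Cyp12a5 was at 0.891 ± 0.163 CPM after mating and 3.92 ± 0.835 CPM without mating (log2 fold change -2.13, SE 0.24, adjusted p = 0.00185). Cyp6g1, known for its part in insecticide resistance, averaged 4.4 ± 0.985 CPM after mating and 16.6 ± 2.73 CPM without mating (log2 fold change -1.91, SE 0.18, adjusted p = 0.00184). The 5 that rose were Cyp12e1 (0.52, adjusted p = 0.01), Cyp305a1 (0.18, adjusted p = 0.0227), Cyp6u1 (0.38, adjusted p = 0.02), Cyp6v1 (0.41, adjusted p = 0.0221) and Cyp6w1 (0.68, adjusted p = 0.0402). Calls among these were lost for Cyp305a1 on leaving out mated library 2 or 3 or unmated library 2 (adjusted p from 0.0502 to 0.0604), Cyp6u1 on leaving out mated library 1 or 2 or unmated library 4 (adjusted p from 0.0534 to 0.0561), Cyp6v1 on leaving out mated library 2 or unmated library 4 (adjusted p from 0.0505 to 0.0593), and Cyp6w1 on leaving out mated library 1, 2 or 4 or unmated library 1, 2, 3 or 4 (adjusted p from 0.0516 to 0.102). Of 23 tested UDP-glycosyltransferases 11 fell and 1 rose, with a median of -0.62. Ugt35C1 averaged 9.7 ± 2.67 CPM after mating and 79.4 ± 56.2 CPM without mating (log2 fold change -3.03, SE 0.53, adjusted p = 0.00548), and Ugt316A1 was the one that rose (0.41, adjusted p = 0.00565). Without unmated libraries 1 and 4 together, 17 transferases, 18 cytochromes and 6 glycosyltransferases were lower.

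Antioxidant genes under the factor cnc, the fly Nrf2, were lower. Of 22 tested genes 14 fell (63.6%) and none rose, with a median of -0.33. Gclc, the catalytic subunit of the enzyme that starts glutathione synthesis, had 124, 95, 88.5 and 94.4 CPM in mated libraries 1 to 4, against 655, 327, 242 and 497 CPM in unmated libraries 1 to 4 (log2 fold change -2.10, SE 0.29, adjusted p = 0.00308). Gclm, its regulatory subunit, was at 80.7 ± 8.45 CPM after mating and 281 ± 123 CPM without mating (log2 fold change -1.80, SE 0.30, adjusted p = 0.00468). Trxr-1, the thioredoxin reductase, fell by 0.77 (adjusted p = 0.00441), Men, a malic enzyme that makes NADPH, fell (log2 fold change -1.20, SE 0.10, adjusted p = 0.00163), and ref(2)P, the autophagy adaptor p62, fell by 1.05 (adjusted p = 0.0033). cnc was at 289.7 ± 14.1 CPM after mating and 388 ± 43 CPM without mating (log2 fold change -0.42, SE 0.09, adjusted p = 0.00738), and Keap1, which holds cnc back and is itself a target of it, fell by 1.10 (SE 0.15, adjusted p = 0.00266). The superoxide dismutases Sod1 and Sod2 did not pass the test, with log2 fold changes of -0.10 and 0.08 (adjusted p = 0.234 and 0.322).

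The largest decrease among the better-expressed genes sat between 2 antioxidant genes. CG11825 (FBgn0033519, 2R, 10420414 to 10423650, minus strand) had 1.78, 1.29, 0.991 and 1.32 CPM in mated libraries 1 to 4, against 49.5, 18.4, 44.2 and 69.7 CPM in unmated libraries 1 to 4 (log2 fold change -5.06, SE 0.43, adjusted p = 0.00163). On either side of it lie Prx2540-2 (10418718 to 10419761) and Prx2540-1 (10424436 to 10425471), which encode peroxiredoxins. Prx2540-2 had 4.44, 4.42, 3.75 and 4.23 CPM in mated libraries 1 to 4, against 31.1, 18.4, 42.8 and 58.4 CPM in unmated libraries 1 to 4 (log2 fold change -3.16, SE 0.33, adjusted p = 0.00185), and Prx2540-1 had 2.27, 2.16, 1.85 and 1.88 CPM in mated libraries 1 to 4, against 12.9, 7.05, 15.6 and 20.9 CPM in unmated libraries 1 to 4 (log2 fold change -2.78, SE 0.30, adjusted p = 0.00185). In all 3 genes unmated library 4 was the highest and unmated library 2 the lowest of the unmated libraries, an order unlike that of most genes that fell. The peroxiredoxin genes are related copies, and the sharing of reads between them was not measured.

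Several targets of the stress kinase JNK were lower. Of 14 tested genes 7 fell and 1 rose, with a median of -0.55. Ets21C (FBgn0005660, 2L, 544925 to 552923, minus strand), an ETS factor induced in damaged guts, had 249, 77.6, 149 and 159 CPM in mated libraries 1 to 4, against 1099, 718, 502 and 965 CPM in unmated libraries 1 to 4. Mated library 1 was the highest of the mated group, and no libraries overlapped (log2 fold change -2.37, SE 0.36, adjusted p = 0.00382). puc, the phosphatase that JNK induces and that shuts it off, was at 209.6 ± 45.3 CPM after mating and 523 ± 166 CPM without mating (log2 fold change -1.32, SE 0.25, adjusted p = 0.00647). Jra, the Jun gene, fell by 1.53 (adjusted p = 0.00281), kay, the Fos gene, fell by 0.69 (adjusted p = 0.00835), and Mmp1, a matrix metalloprotease, fell by 1.11 (adjusted p = 0.00549). hep, the kinase that activates JNK, was at 173 ± 22.5 CPM after mating and 186 ± 12.7 CPM without mating, with overlapping groups (adjusted p = 0.399). egr, the fly tumour necrosis factor, was the one that rose and had 242, 224, 205 and 206 CPM in mated libraries 1 to 4, against 152, 162, 163 and 111 CPM in unmated libraries 1 to 4 (log2 fold change 0.58, SE 0.12, adjusted p = 0.00845). wgn, a receptor of egr, fell by 3.17 (adjusted p = 0.00247) at very low levels, averaging 0.0888 ± 0.0302 CPM after mating and 0.844 ± 0.27 CPM without mating.

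Immediate early genes, which cells switch on within minutes of a stimulus or of dissociation, were lower as well. Of 9 tested genes 8 fell and none rose, with a median of -1.13. Besides Ets21C, Jra and kay, these included Hr38, an orphan nuclear receptor, at 0.27 ± 0.0804 CPM after mating and 1.12 ± 0.34 CPM without mating (log2 fold change -2.04, SE 0.34, adjusted p = 0.00421), and sr, the fly Egr factor stripe (-1.13, adjusted p = 0.0301). The call of sr was lost on leaving out mated library 1, 2, 3 or 4 or unmated library 1, 2 or 4 (adjusted p from 0.0606 to 0.0801). The sources used here do not state the time between dissection, sorting and lysis, and the part of handling in these levels was not tested.

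Cytokines of the JAK/STAT pathway were lower while its transcription factor was slightly higher. Of 11 tested genes 5 fell and 1 rose, with a median of -0.21, or 0.03 with 3 higher and 5 lower when scaled to library totals. upd3 (FBgn0053542, X, 18277233 to 18284596, plus strand), the interleukin-like ligand that damaged gut cells release, had 81.6, 49.4, 99.4 and 89.7 CPM in mated libraries 1 to 4, against 322, 217, 161 and 332 CPM in unmated libraries 1 to 4 (log2 fold change -1.69, SE 0.28, adjusted p = 0.00461). upd2, a related ligand, was at 26.6 ± 13 CPM after mating and 81.5 ± 29.9 CPM without mating (log2 fold change -1.61, SE 0.38, adjusted p = 0.0138). Socs36E, a feedback inhibitor induced by the pathway, had 451, 399, 498 and 386 CPM in mated libraries 1 to 4, against 1590, 867, 654 and 896 CPM in unmated libraries 1 to 4 (log2 fold change -1.21, SE 0.25, adjusted p = 0.0086). Ptp61F, a phosphatase that turns the pathway down, fell by 0.72 (adjusted p = 0.00646), and et, a receptor-like inhibitor, fell by 2.09 (adjusted p = 0.00854). Stat92E, the STAT gene, was the one that rose, at 595 ± 52.9 CPM after mating and 477 ± 54.5 CPM without mating (log2 fold change 0.32, SE 0.10, adjusted p = 0.0298), and lost its call on leaving out mated library 1 or 2 or unmated library 1 or 4 (adjusted p from 0.0536 to 0.0712).

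Genes of cell death moved in both directions. Of 13 tested genes 2 rose (15.4%) and 5 fell (38.5%), against 19.1% and 21.1% of all genes. The median was -0.04, or 0.20 with 4 higher and 5 lower when scaled to library totals. hid, an inducer of apoptosis, had 18.6, 22.8, 20.7 and 15.5 CPM in mated libraries 1 to 4, against 12.6, 12.4, 12.6 and 11.7 CPM in unmated libraries 1 to 4, without overlap (log2 fold change 0.65, SE 0.12, adjusted p = 0.00549), and egr was the other that rose. Dronc, the initiator caspase, had 52.9, 48.5, 44 and 43.7 CPM in mated libraries 1 to 4, against 125, 77, 71.9 and 76.2 CPM in unmated libraries 1 to 4 (log2 fold change -0.89, SE 0.17, adjusted p = 0.0066). Its adaptor Dark fell by 0.58 (adjusted p = 0.0102), the effector caspase Dcp-1 fell by 0.67 (adjusted p = 0.00184), the caspase inhibitor Diap1 fell by 0.64 (adjusted p = 0.0116), and the Bcl-2 family gene Buffy fell by 1.32 (adjusted p = 0.0274). Buffy lost its call on leaving out mated library 2, 3 or 4 or unmated library 1 or 4 (adjusted p from 0.0502 to 0.069).

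Calls of Hippo, Wnt and BMP genes depended on the scaling. Of 14 tested Hippo genes 1 rose and 4 fell (median -0.16, or 0.08 with 5 higher and 2 lower when scaled to library totals). jub, an Ajuba protein that holds back Warts, rose by 0.24 (adjusted p = 0.0213). ex, which is both a target and an upstream member of the pathway, fell by 0.55 (adjusted p = 0.00762), with Diap1, kibra (-0.35, adjusted p = 0.0316) and Wbp2 (-0.41, adjusted p = 0.00664). Of 20 tested Wnt and BMP genes 3 rose (15%) and 1 fell (5%), with a median of 0.02, or 0.27 with 10 higher and 1 lower when scaled to library totals. fz3, a target of Wnt signalling, was at 13.2 ± 1.5 CPM after mating and 7.18 ± 1.07 CPM without mating (log2 fold change 0.87, SE 0.14, adjusted p = 0.00363), gbb, a BMP ligand, rose by 0.58 (adjusted p = 0.00363) and put, a BMP receptor, by 0.20 (adjusted p = 0.0313), while dpp, the main BMP ligand, fell by 1.72 (adjusted p = 0.0258). Calls were lost for jub on leaving out mated library 2 or 3 or unmated library 4 (adjusted p from 0.0512 to 0.0573), kibra on leaving out mated library 1, 2, 3 or 4 (adjusted p from 0.0507 to 0.0817), put on leaving out mated library 1, 2 or 3 or unmated library 2 or 4 (adjusted p from 0.0665 to 0.0815), and dpp on leaving out mated library 1 or 3 or unmated library 4 (adjusted p from 0.0555 to 0.0729). kibra and Wbp2 also lost their calls when scaled to library totals.

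Genes of nutrient uptake and use were lower in part. Tret1-1 (FBgn0050035, 2R, 11665768 to 11674782, plus strand), a trehalose transporter, had 41, 22.9, 35.8 and 33 CPM in mated libraries 1 to 4, against 558, 325, 328 and 668 CPM in unmated libraries 1 to 4 (log2 fold change -3.82, SE 0.30, adjusted p = 0.00163). It belonged to 24 tested nutrient transporters, of which 14 fell (58.3%) and none rose, with a median of -0.71. path, an amino acid transporter, fell by 1.58 (SE 0.19, adjusted p = 0.00247). Of 19 tested genes of glycolysis and its neighbours 6 fell and none rose (median -0.07, or 0.17 with 5 higher and 5 lower when scaled to library totals). These included Ldh, the lactate dehydrogenase, with 96, 73, 127 and 98.2 CPM in mated libraries 1 to 4, against 355, 322, 300.4 and 571 CPM in unmated libraries 1 to 4 (log2 fold change -1.97, SE 0.24, adjusted p = 0.00259), Hex-A, a hexokinase (-1.34, adjusted p = 0.00425), Pgi (-0.63, adjusted p = 0.00466), and Pdk, which blocks pyruvate entry into mitochondria (-1.28, adjusted p = 0.00763). Pepck2, a gluconeogenic enzyme, averaged 8.84 ± 2.15 CPM after mating and 54.5 ± 29.1 CPM without mating (log2 fold change -2.62, SE 0.41, adjusted p = 0.00383).

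Of 23 tested lipid genes 10 fell and 3 rose, with a median of -0.18, or 0.05 with 7 higher and 6 lower when scaled to library totals. The coat proteins of lipid droplets went opposite ways. Lsd-2, which is made in many tissues, had 504, 385, 321 and 370.5 CPM in mated libraries 1 to 4, against 2279, 1218, 934 and 1963 CPM in unmated libraries 1 to 4 (log2 fold change -2.02, SE 0.28, adjusted p = 0.00315). Lsd-1, the other perilipin, was near the floor with 3.48, 2.19, 2.09 and 1.79 CPM in mated libraries 1 to 4, against 1.56, 1.09, 0.772 and 0.733 CPM in unmated libraries 1 to 4 (log2 fold change 1.21, SE 0.32, adjusted p = 0.0183). FASN2, a fatty acid synthase, fell by 1.74 (adjusted p = 0.00652), and Agpat3 and S1P rose by 0.29 and 0.28 (adjusted p = 0.0104 and 0.0149). Lsd-1 lost its call on leaving out unmated library 4 (adjusted p = 0.0508). Of 6 tested metallothionein genes and their regulator 3 fell, MtnB (-1.52, adjusted p = 0.0317), MtnC (-1.77, adjusted p = 0.0225) and the factor MTF-1 (-0.31, adjusted p = 0.0155), with calls lost for MtnB on leaving out mated library 1 or 2 or unmated library 1, 2 or 4 (adjusted p from 0.0518 to 0.0811), and MtnC on leaving out mated library 1, 3 or 4 (adjusted p from 0.0527 to 0.0563) and, when scaled to library totals, for MTF-1.

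Genes of insulin and TOR signalling were called in either direction no more often than all genes. Thor (FBgn0261560, 2L, 3478434 to 3479612, plus strand), the translation repressor 4E-BP that is high when insulin and TOR signalling is low, had 345, 332, 285 and 231 CPM in mated libraries 1 to 4, against 687, 441, 464 and 487 CPM in unmated libraries 1 to 4 (log2 fold change -0.80, SE 0.17, adjusted p = 0.00827). InR, the insulin receptor, had 110, 126, 165 and 149 CPM in mated libraries 1 to 4, against 224, 182, 206 and 272 CPM in unmated libraries 1 to 4 (log2 fold change -0.69, SE 0.15, adjusted p = 0.00968). ImpL2, a secreted protein that binds insulin-like peptides, was at 9.05 ± 3.23 CPM after mating and 39.8 ± 14.1 CPM without mating (log2 fold change -2.14, SE 0.31, adjusted p = 0.00343). Pi3K92E, the kinase below the receptor, fell by 0.35 (adjusted p = 0.0164), a call lost when scaled to library totals. Of 23 tested genes of insulin and TOR these 4 fell (17.4%, against 21.1% of all genes), and 4 rose (17.4%, against 19.1%). Those that rose were Rheb, which activates TOR (0.29, adjusted p = 0.00714), raptor, a subunit of its complex (0.36, adjusted p = 0.0305), Tsc1, which holds Rheb back (0.28, adjusted p = 0.0177), and scyl. The median was -0.01, or 0.23 with 11 higher and 3 lower when scaled to library totals, and raptor lost its call on leaving out mated library 1, 2 or 3 or unmated library 1 or 4 (adjusted p from 0.0531 to 0.0799). Without unmated libraries 1 and 4 together, calls were lost for InR, Pi3K92E, raptor, Tsc1 and scyl (adjusted p from 0.0657 to 0.138). Of 20 autophagy genes 6 rose, among them Atg7 (0.46, adjusted p = 0.00655), and 2 fell, ref(2)P and Atg4a (-0.37, adjusted p = 0.00593). The median was 0.06, or 0.29 with 14 higher and 1 lower when scaled to library totals, and 2 rose on leaving out mated library 2 or unmated library 4.

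Myc fell while several genes of ribosome production rose. Myc (FBgn0262656, X, 3373159 to 3391697, plus strand), the transcription factor gene that drives ribosome synthesis and cell growth, had 446, 491, 418 and 348 CPM in mated libraries 1 to 4, against 853, 595, 541 and 568 CPM in unmated libraries 1 to 4 (log2 fold change -0.59, SE 0.16, adjusted p = 0.0191). Of 34 tested genes of this list 12 rose (35.3%) and 2 fell, with a median of 0.22, or 0.45 with 30 higher and 1 lower when scaled to library totals. RpI135, a subunit of RNA polymerase I, had 90.6, 94.8, 99.4 and 103 CPM in mated libraries 1 to 4, against 57.4, 81.7, 82.9 and 69.3 CPM in unmated libraries 1 to 4 (log2 fold change 0.41, SE 0.11, adjusted p = 0.0207), with unmated library 3 the nearest to the mated group. Bka, of the same list, rose by 0.47 (adjusted p = 0.0327) and lost its call on leaving out mated library 2, 3 or 4 or unmated library 4 (adjusted p from 0.0636 to 0.0856). The 2 that fell were Myc and Non1, a GTPase of the large subunit (-0.38, adjusted p = 0.0465). Calls were lost for RpI135 on leaving out mated library 4 or unmated library 4 (adjusted p from 0.0516 to 0.0563), and Non1 on leaving out mated library 2, 3 or 4 or unmated library 1, 2 or 4 (adjusted p from 0.0563 to 0.115) and, when scaled to library totals, for Non1. Leaving out mated library 2 or 4 left 5 higher, mated library 3 left 7, unmated library 4 left 4, and unmated libraries 1 and 4 together left 3. Without unmated libraries 1 and 4 together Myc lost its call as well (log2 fold change -0.425, adjusted p = 0.0666).

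Transcripts of the cytosolic ribosomal proteins were slightly lower. They summed to between 184000 and 206000 CPM after mating and between 213000 and 266000 CPM without mating. Of 82 tested genes 77 fell (93.9%) and none rose, with a median of -0.29. RpL4 fell by 0.36 (SE 0.08, adjusted p = 0.00965). Scaled to library totals the median was -0.05 with 3 lower, and leaving out mated library 3 or 4 left 24 lower, unmated library 4 left 27, and unmated libraries 1 and 4 together left 1.

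Genes of the mitochondrial genome were lower, while calls of nuclear genes of mitochondria depended on the scaling. Of 13 tested genes on the mitochondrial genome 9 fell and none rose, with a median of -0.35, or -0.10 with 5 lower when scaled to library totals. mt:ND5, a subunit of complex I, had 279, 254, 267 and 233 CPM in mated libraries 1 to 4, against 484, 428, 336 and 408 CPM in unmated libraries 1 to 4 (log2 fold change -0.68, SE 0.11, adjusted p = 0.00382). mt:CoI, a subunit of cytochrome oxidase, was at 3341 ± 155 CPM after mating and 4754 ± 565 CPM without mating (log2 fold change -0.51, SE 0.09, adjusted p = 0.00487). Of 72 mitochondrial ribosomal proteins, which are encoded in the nucleus, 8 rose and none fell (median 0.15, or 0.38 with 39 higher when scaled to library totals), with mRpS18A the largest shown (0.42, adjusted p = 0.0184). DESeq2's size factors gave 3 higher. Leaving out any of mated libraries 2, 3 and 4 gave 1, as did unmated library 4, and unmated library 1 or 2 gave 3, and mRpS18A lost its call on leaving out unmated library 4 (adjusted p = 0.0519). Of 62 nuclear genes of the respiratory chain and ATP synthase 2 rose, ND-49 (0.23, adjusted p = 0.02) and UQCR-11 (0.31, adjusted p = 0.0333), and 2 fell, ATPsynbetaL (-1.54, adjusted p = 0.025) and UQCR-11L (-1.61, adjusted p = 0.0143). The median was 0.04, and 27 rose when scaled to library totals. The calls of some were lost: ND-49 on leaving out unmated library 4 (adjusted p = 0.0542), UQCR-11 on leaving out mated library 2, 3 or 4 or unmated library 1 or 4 (adjusted p from 0.0509 to 0.0844), and ATPsynbetaL on leaving out mated library 1 or 4 or unmated library 1 or 4 (adjusted p from 0.0598 to 0.0674).

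**Figure D4:**
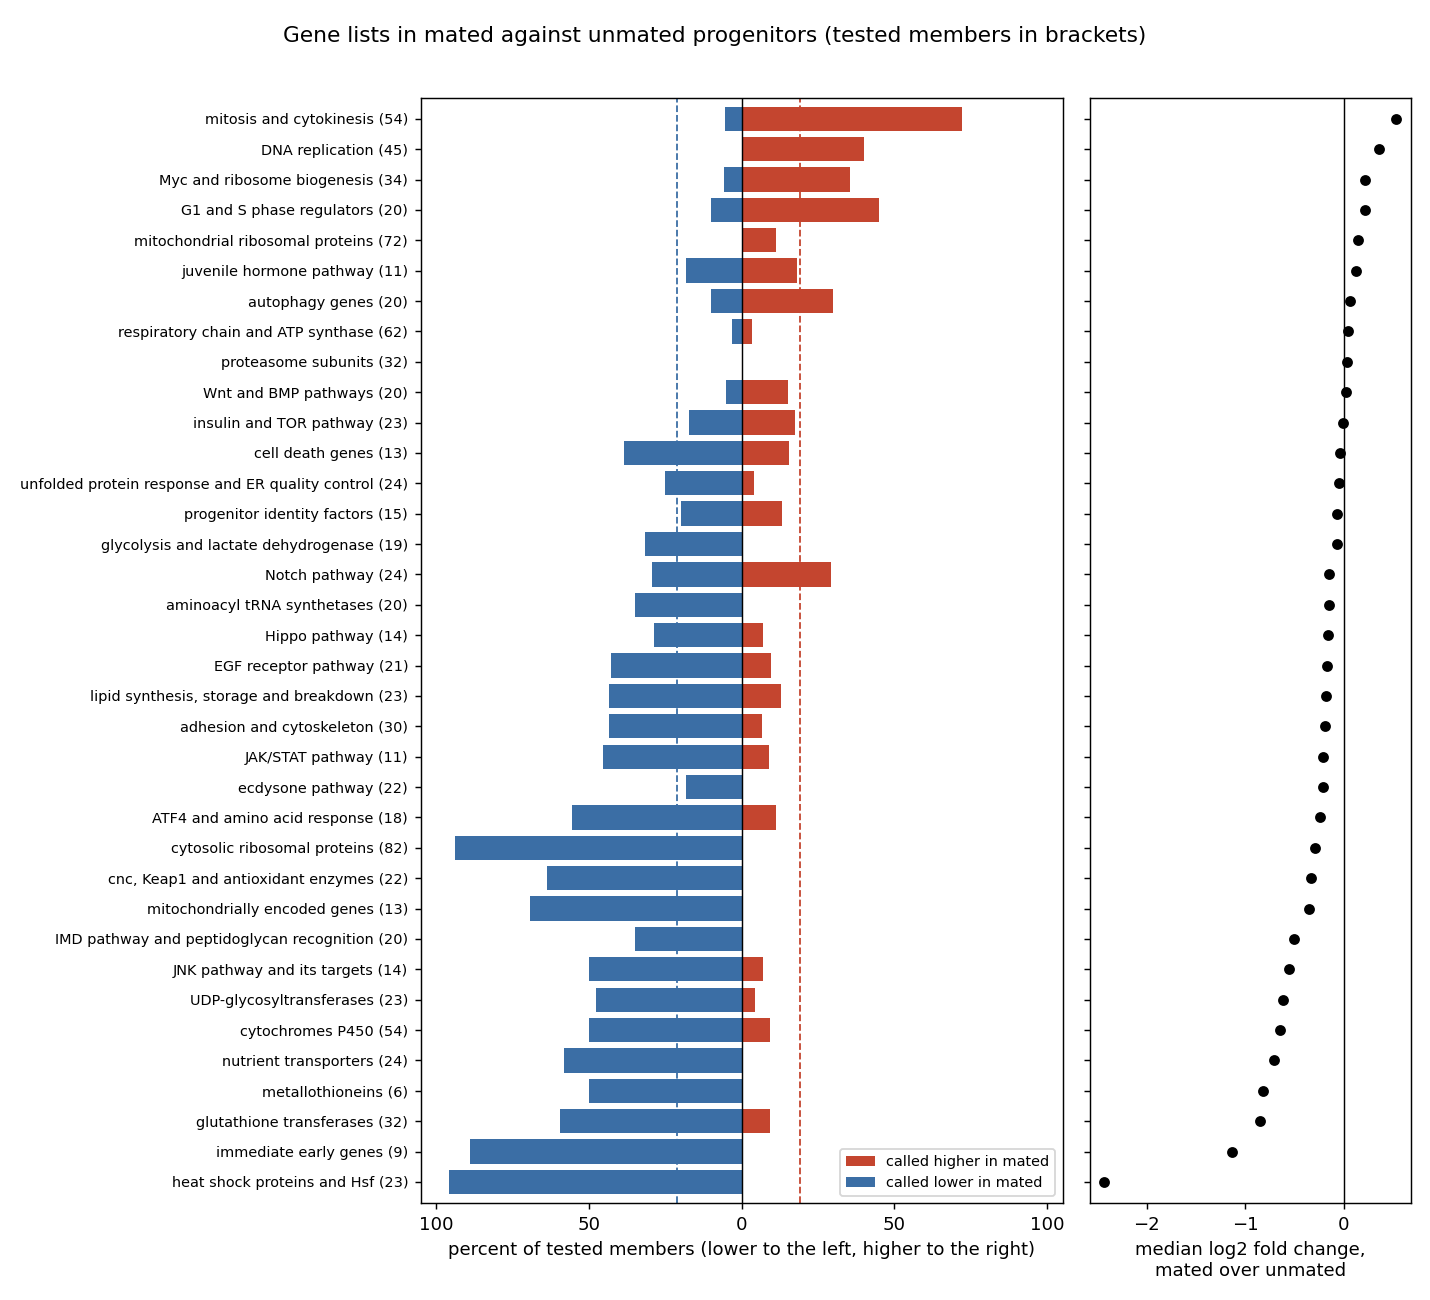
Gene lists in mated against unmated progenitors, with the median log2 fold change of their tested members. Heat shock genes lie furthest below 0, with a median of -2.43, and mitosis lies highest, with a median of 0.53.

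The number of calls among receptors and targets of ecdysone and juvenile hormone depended on the scaling. EcR, the ecdysone receptor, had 59.3, 58.5, 52 and 45.8 CPM in mated libraries 1 to 4, against 67, 60.8, 51.5 and 48 CPM in unmated libraries 1 to 4. The groups overlapped, and neither EcR (log2 fold change -0.08, SE 0.12, adjusted p = 0.63) nor its partner usp (0.07, adjusted p = 0.497) passed the test. The early response genes Eip75B and Eip74EF had log2 fold changes of -0.24 and -0.29 (adjusted p = 0.158 and 0.0836). EcR overlaps 11 and Eip75B 2 other annotated genes on the same strand. Of 22 tested genes 4 fell and none rose (median -0.21, or 0.04 with 5 higher and 1 lower when scaled to library totals): Eip93F, a late response factor (-0.41, adjusted p = 0.0187), Hr39 (-0.29, adjusted p = 0.0206), Hr38, and MsrA, a methionine sulfoxide reductase (-0.53, adjusted p = 0.0201). Eip93F, Hr39 and MsrA lost their calls when scaled to library totals, and single libraries ended the calls of Hr39 on leaving out mated library 3 or 4 (adjusted p from 0.0562 to 0.0581), and MsrA on leaving out mated library 2 or unmated library 4 (adjusted p from 0.0553 to 0.0579).

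Kr-h1, the zinc finger gene that juvenile hormone induces, had 47.3, 64.4, 59 and 41.2 CPM in mated libraries 1 to 4, against 43.9, 41.1, 34.5 and 34.4 CPM in unmated libraries 1 to 4 (log2 fold change 0.46, SE 0.15, adjusted p = 0.0338). Mated libraries 2 and 3 were the highest, while mated library 4 lay within the unmated range. The call was lost on leaving out mated library 2 or 3 or unmated library 3 or 4 (adjusted p from 0.078 to 0.0873). It was also lost with a minimum count of 50 and without unmated libraries 1 and 4 together (adjusted p = 0.0528 and 0.139). The hormone's receptors Met and gce had log2 fold changes of 0.28 and 0.21 and did not pass (adjusted p = 0.0726 and 0.0941). Met passed without unmated library 3 (adjusted p = 0.0372). Scaled to library totals, 6 of 11 juvenile hormone genes were higher and 1 lower, with usp, Met and gce called higher (adjusted p = 0.0226, 0.0184 and 0.0109). Jheh2, which breaks the hormone down, rose by 0.50 (adjusted p = 0.0175), and was, with Kr-h1, 1 of the 2 genes that rose among 11 tested. Hsp83, a partner of the receptor, and CG10407, a gene of the hormone-binding protein family (-0.29, adjusted p = 0.0472), were the 2 that fell. CG10407 lost its call when scaled to library totals and on leaving out mated library 1, 2, 3 or 4 or unmated library 1, 2 or 4 (adjusted p from 0.0764 to 0.122). SPR, the receptor of sex peptide, had 0, 0, 0.0804 and 0.056 CPM in mated libraries 1 to 4, against 0.199, 0, 0.106 and 0.159 CPM in unmated libraries 1 to 4, and did not pass the filter on low counts.

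Immune genes were lower in part. Rel, the NF-kappaB factor of the IMD pathway, had 420.4, 211, 218 and 257 CPM in mated libraries 1 to 4, against 1260, 846, 689.9 and 1112 CPM in unmated libraries 1 to 4. Mated library 1 was the highest of its group, and no libraries overlapped (log2 fold change -1.82, SE 0.27, adjusted p = 0.00344). Of 20 tested genes 7 fell and none rose, with a median of -0.50. PGRP-SD, a secreted recognition protein, was at 13.6 ± 3.84 CPM after mating and 50.7 ± 10.6 CPM without mating (log2 fold change -1.90, SE 0.23, adjusted p = 0.00259). PGRP-LF, a membrane inhibitor of the pathway, fell by 1.14 (adjusted p = 0.00649) and pirk, an intracellular one, fell by 0.64 (adjusted p = 0.0143). Rel overlaps Nmdmc and PGRP-SD overlaps CG32373 on the same strand. With mated library 2 or 4 left out, 4 were lower.

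The E-cadherin gene rose while several genes of integrin adhesion fell. shg, the E-cadherin by which progenitors hold to their neighbours, had 759, 734, 708 and 704 CPM in mated libraries 1 to 4, against 406, 530.2, 565 and 384 CPM in unmated libraries 1 to 4, with no overlap (log2 fold change 0.62, SE 0.12, adjusted p = 0.00677). In all, 2 of 30 tested adhesion and cytoskeleton genes rose and 13 fell (median -0.19, or 0.05 with 10 higher and 8 lower when scaled to library totals). Vinc, the vinculin gene, had 365, 286, 284 and 292 CPM in mated libraries 1 to 4, against 922, 579, 556 and 625 CPM in unmated libraries 1 to 4 (log2 fold change -1.13, SE 0.17, adjusted p = 0.00315), rhea, the talin gene, fell by 0.54 (adjusted p = 0.00646), Pax, the paxillin gene, fell by 0.75 (adjusted p = 0.00507) and mys, an integrin beta chain, fell by 0.46 (adjusted p = 0.0068). mew, an integrin alpha chain, was the other that rose (0.25, adjusted p = 0.0418). mew lost its call on leaving out mated library 1, 2 or 3 or unmated library 1 or 4 (adjusted p from 0.0685 to 0.102). It lost it also with DESeq2's size factors and with a minimum count of 50 (adjusted p = 0.0563 and 0.0688). Act5C, a cytoplasmic actin, did not pass (-0.05, adjusted p = 0.531), and was higher when scaled to library totals (0.19, adjusted p = 0.00491).

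Markers of other cell types were detected in the sorted libraries. Enterocyte markers summed to between 3050 and 4750 CPM after mating and between 3330 and 5900 CPM without mating, whereas whole guts held 77400 to 88400 CPM after mating and 137000 to 179000 CPM without mating. Of 22 tested enterocyte markers 3 rose and 8 fell, with a median of -0.28. Mal-A1, a maltase, had 38.5, 35.5, 33.7 and 54.8 CPM in mated libraries 1 to 4, against 199, 85.5, 178 and 79.1 CPM in unmated libraries 1 to 4 (log2 fold change -1.74, SE 0.33, adjusted p = 0.00663), mex1, a membrane protein of these cells, fell by 1.29 (adjusted p = 0.00921), and Npc1b, a sterol uptake protein, fell by 2.73 (adjusted p = 0.00431), as did Mal-A7 (-3.02, adjusted p = 0.00649). The 3 that rose were the proteases Jon65Aiii (0.66, adjusted p = 0.0486) and Jon25Bi and the phosphatase Alp10, and Jon65Aiii lost its call on leaving out mated library 1, 2 or 4 or unmated library 2, 3 or 4 (adjusted p from 0.0861 to 0.11). Jon65Aiii lost it also with DESeq2's size factors and with a minimum count of 50 (adjusted p = 0.0599 and 0.066). With mated library 1, 2 or 3 left out, 5 were lower.

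Enteroendocrine markers summed to between 435 and 827 CPM after mating and between 733 and 1160 CPM without mating, and the ranges overlapped. Whole guts, scaled on their own, held 739 to 826 CPM after mating and 769 to 857 CPM without mating, near the levels of the sorted cells. Of 22 tested markers 8 fell and 1 rose, with a median of -0.67. CCHa2, a peptide hormone, had 5.99, 5.26, 16.7 and 10.9 CPM in mated libraries 1 to 4, against 39.6, 23, 34.5 and 37.1 CPM in unmated libraries 1 to 4 (log2 fold change -1.79, SE 0.36, adjusted p = 0.00823). Nplp2, a neuropeptide-like gene, was the one that rose (0.99, adjusted p = 0.0085). Mip, a myoinhibitory peptide, fell by 1.32 (adjusted p = 0.0184). The defining marker pros, a transcription factor, was at 38.8 ± 3.52 CPM after mating and 31.9 ± 5.88 CPM without mating and did not pass (adjusted p = 0.11). The peptide gene Tk, at 53.5 ± 31.6 CPM after mating and 71.8 ± 29.8 CPM without mating, did not pass either (adjusted p = 0.487). Leaving out mated library 1 or 4 left 5 lower, mated library 2 left 3, unmated library 1 or 4 left 4, and both of these left 1, and Mip lost its call on leaving out mated library 2 (adjusted p = 0.0507). The part of enteroendocrine and enterocyte RNA in the changes above was not tested.

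Markers of tissues around the gut summed to less than enterocyte or enteroendocrine markers in the sorted libraries. Compared with whole guts scaled on their own, visceral muscle, ovary and fat body sums were lower in sorted cells. Haemocyte sums were lower after mating and overlapped without mating, and the neuronal sum was higher. The sums include markers under the filter on low counts, and in no list was a marker at 0 in every library. Visceral muscle markers summed to between 10.7 and 24.7 CPM after mating and between 17.8 and 42.6 CPM without mating, and none of 15 was called by edgeR or DESeq2, though 2 were lower and 0 higher by edgeR at p under 0.05 before adjustment. Haemocyte markers summed to between 173 and 205 CPM after mating and between 190 and 296 CPM without mating, and of 7 only Ppn, a matrix protein, fell (-1.59, adjusted p = 0.0124). The scavenger receptor gene crq alone averaged 173 CPM after mating and 209 CPM without mating and made up most of this sum, and the defining markers Hml and NimC1 were near 0. Ovary markers summed to between 5.89 and 25.8 CPM after mating and between 15 and 48.1 CPM without mating, and of 6 the eggshell genes psd (-2.10, adjusted p = 0.0039) and Cp18 (-2.75, adjusted p = 0.008) fell. All 3 tested tracheal markers fell: serp, a chitin deacetylase (-1.15, adjusted p = 0.0169), btl, the FGF receptor (-0.57, adjusted p = 0.0301), and bnl, its ligand (-1.46, adjusted p = 0.00462). With the untested markers the tracheal sum lay between 40.2 and 51.9 CPM after mating and between 62.3 and 102 CPM without mating. Whole guts held 38.7 to 51 CPM after mating and 40.1 to 53.4 CPM without mating. btl made up most of the sum in sorted cells, at 37.1 CPM after mating and 55.1 CPM without mating. In whole guts btl averaged 6.11 and 5.46 CPM. Gasp, trh and verm were near 0 in sorted cells. Which cells the btl RNA came from was not tested. Neuronal markers summed to between 47.7 and 64.9 CPM after mating and between 52.3 and 59.6 CPM without mating, and 1 of 5, brp of the synapse, fell (-0.67, adjusted p = 0.0304). Whole guts held 15.1 to 19.2 CPM of neuronal markers after mating and 11.2 to 17 CPM without mating. In sorted cells elav averaged 38.7 CPM after mating and 31.7 CPM without mating, against 4.38 and 2.93 CPM in whole guts. Fat body markers summed to between 4.68 and 5.49 CPM after mating and between 6.2 and 11.2 CPM without mating, and 1 of 3, Fbp1, fell (-2.74, adjusted p = 0.00649). Calls were lost for btl on leaving out mated library 1, 2, 3 or 4 or unmated library 2 (adjusted p from 0.0518 to 0.0715), and brp on leaving out mated library 1, 2 or 4 or unmated library 4 (adjusted p from 0.0584 to 0.0829) and, when scaled to library totals, for btl and brp.

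Genes of digestion were among the 10 largest increases named by size. Jon25Bii (FBgn0031654, 2L, 4952243 to 4953136, minus strand), a Jonah protease secreted into the gut, had 197, 241, 126 and 253 CPM in mated libraries 1 to 4, against 61.4, 35.8, 58 and 22.5 CPM in unmated libraries 1 to 4 (log2 fold change 2.20, SE 0.34, adjusted p = 0.00383). Its close relative Jon25Bi was at 112 ± 36.4 CPM after mating and 33 ± 16.2 CPM without mating (log2 fold change 1.77, SE 0.39, adjusted p = 0.0108), and the sharing of reads between the copies was not measured. CG17192, of the lipase family, had 99.4, 132, 63.9 and 132 CPM in mated libraries 1 to 4, against 61.7, 24.6, 28.2 and 20 CPM in unmated libraries 1 to 4 (log2 fold change 1.67, SE 0.38, adjusted p = 0.0118). The alkaline phosphatases Alp9 and Alp10 rose by 1.52 and 1.47 (adjusted p = 0.00888 and 0.0117). In each of these genes mated library 3 had the lowest value of the mated libraries.

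Other large increases were in genes for which no role is given here. CG10512 was at 64.2 ± 10 CPM after mating and 25.9 ± 4.22 CPM without mating (log2 fold change 1.31, SE 0.15, adjusted p = 0.00185), and CG31324 had 46.2, 51.5, 36.4 and 35.5 CPM in mated libraries 1 to 4, against 17.3, 11.8, 11.7 and 19.3 CPM in unmated libraries 1 to 4 (log2 fold change 1.5, SE 0.19, adjusted p = 0.00259). pxb was at 31.6 ± 5.37 CPM after mating and 14.9 ± 3.01 CPM without mating (log2 fold change 1.08, SE 0.17, adjusted p = 0.00358), and CG43218 and CG10479 rose by 1.36 and 1.12 (adjusted p = 0.00668 and 0.0179).

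Among the 10 largest decreases named by size were tobi, CG6733 and CG7953. tobi (FBgn0261575, 3R, 25344761 to 25346921, minus strand), an alpha-glucosidase that insulin and glucagon-like signals are known to control in the fat body, had 3.03, 3.4, 3.64 and 5.94 CPM in mated libraries 1 to 4, against 158, 35.2, 97.3 and 30.4 CPM in unmated libraries 1 to 4 (log2 fold change -4.33, SE 0.59, adjusted p = 0.00293). Unmated libraries 1 and 3 were the highest, an order unlike that of the heat shock genes. CG6733 was at 1.34 ± 0.983 CPM after mating and 27.6 ± 10.7 CPM without mating (log2 fold change -4.32, SE 0.53, adjusted p = 0.00259), and CG7953 at 6.71 ± 2.0 CPM after mating and 94.8 ± 59.2 CPM without mating (log2 fold change -3.82, SE 0.53, adjusted p = 0.00297). All mated values of these genes lay below all unmated ones.

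The mating response of the progenitors was then set against that of whole guts of the same genotype, 4 mated and 4 unmated pools of 15 guts, in 1 fit of both. Of 9448 genes tested, the log2 fold change was larger in progenitors than in whole guts for 856 (9.06%) and smaller for 1152 (12.2%). Scaled to library totals these counts were 346 and 1152. The sorted cells had a separate isolation step that the whole guts lacked, so cell type and handling cannot be told apart in this difference. Enterocytes are the most numerous cells of the gut, and their marker sums differed between mated and unmated whole guts, as given above.

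Some digestive genes changed in opposite directions in sorted cells and whole guts. Jon25Bii rose in progenitors and was at 789 ± 177 CPM in whole guts after mating and 5380 ± 1090 CPM in those without mating, where it fell (log2 fold change -2.77, SE 0.21, adjusted p = 0.000182), and the difference was 5.0 (SE 0.44, adjusted p = 1.14e-05). Alp10 was at 388 ± 59.9 CPM in whole guts after mating and 1830 ± 246 CPM in those without mating (log2 fold change -2.24, SE 0.15, adjusted p = 0.000171), a difference of 3.75 (SE 0.40, adjusted p = 6.09e-05). Alp9 fell in whole guts (log2 fold change -2.12, SE 0.15, adjusted p = 0.000182) and gave a difference of 3.67 (SE 0.38, adjusted p = 5.68e-05). CG31324 fell there as well (log2 fold change -2.74, SE 0.48, adjusted p = 0.0199), with a difference of 4.28 (SE 0.51, adjusted p = 0.000117). CG10512 rose in progenitors and did not pass the test in whole guts (log2 fold change -0.43, SE 0.11, adjusted p = 0.061), with a difference of 1.77 (SE 0.20, adjusted p = 6.69e-05). tobi went the other way, with 5550 ± 567 CPM in whole guts after mating and 1220 ± 441 CPM in those without mating (log2 fold change 2.19, SE 0.25, adjusted p = 0.0014) and a difference of -6.49 (SE 0.67, adjusted p = 6.09e-05). Its mated values were thus lower in progenitors and higher in whole guts.

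**Figure D5:**
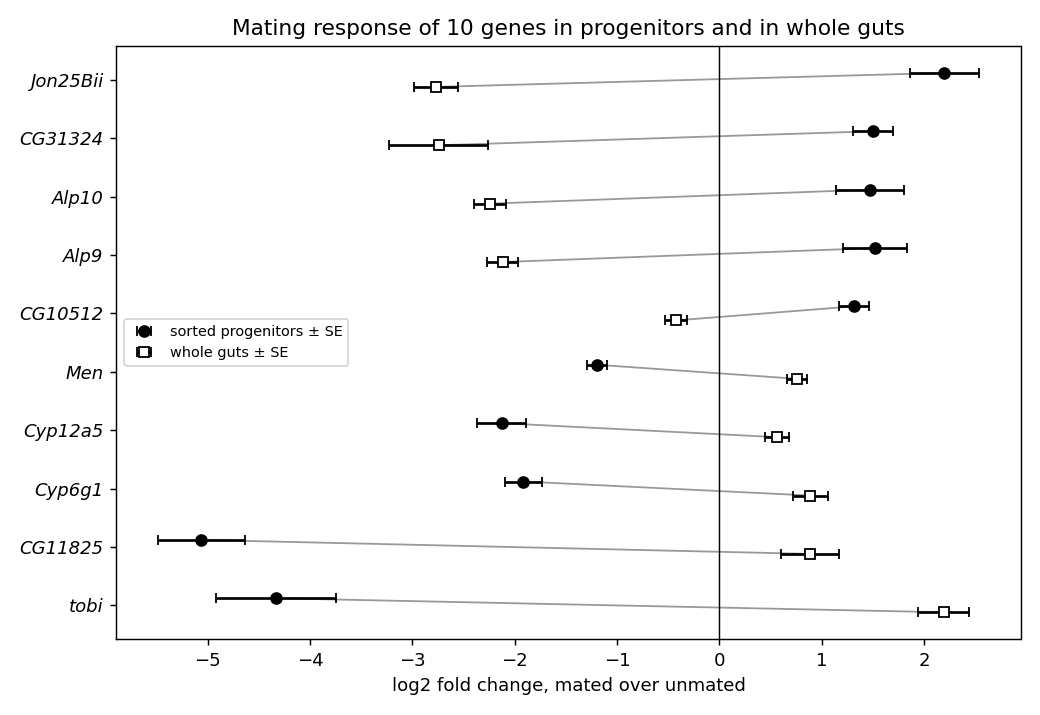
Log2 fold change of mating in whole guts and in sorted progenitors for a selection of named genes, with lines for SE. Jon25Bii, Alp9 and Alp10 lie above 0 in progenitors and below 0 in whole guts, and tobi lies the other way round.

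Genes of detoxification and antioxidant defence that fell in progenitors rose in whole guts in 3 named cases. These 3 were among the genes picked by the smallest adjusted p of the difference. Men rose in whole guts (log2 fold change 0.76, SE 0.10, adjusted p = 0.00256) and gave a difference of -1.92 (SE 0.13, adjusted p = 2.03e-06). Cyp12a5 rose there (log2 fold change 0.56, SE 0.12, adjusted p = 0.0283), with a difference of -2.65 (SE 0.23, adjusted p = 1.14e-05). Cyp6g1 did too (log2 fold change 0.89, SE 0.17, adjusted p = 0.0177), with a difference of -2.76 (SE 0.26, adjusted p = 1.95e-05). CG11825, which was not called in whole guts, was at 3.54 ± 0.723 CPM in whole guts after mating and 1.93 ± 0.714 CPM in those without mating (log2 fold change 0.88, SE 0.28, adjusted p = 0.137), with a difference of -5.92 (SE 0.52, adjusted p = 1.14e-05). Of 67 tested cytochromes P450 32 had a smaller and 1 a larger fold change in progenitors than in whole guts, of 28 UDP-glycosyltransferases 16 and 1, of 33 glutathione transferases 15 and 1, and of 22 antioxidant genes 8 and 0, against 12.2% and 9.06% of all genes. In whole guts alone, 9 of these cytochromes were called higher and 1 lower, and 7 and 0 of the glycosyltransferases. Among the glutathione transferases these counts were 5 and 0, and among the antioxidant genes 2 and 0.

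The stress and cell cycle changes were not all separable from those of whole guts. Of 20 heat shock genes tested in both, 5 had a smaller and 1 a larger fold change in progenitors, and Hsp26, at -1.43 (SE 0.59, adjusted p = 0.294) on the log2 scale in whole guts, gave a difference of -2.08 (SE 0.74, adjusted p = 0.0585). Of 54 mitosis genes 6 had a larger and 1 a smaller fold change in progenitors, and CycB3 was at 3.23 ± 2.94 CPM in whole guts after mating and 2.37 ± 1.86 CPM in those without mating (log2 fold change 0.48, SE 0.81, adjusted p = 0.838), with a difference of 0.29 (SE 0.78, adjusted p = 0.806). For esg the difference was 0.93 (SE 0.29, adjusted p = 0.0356) and for Dl 0.98 (SE 0.37, adjusted p = 0.0696). For Egfr it was 1.03 (SE 0.35, adjusted p = 0.0489), and for Kr-h1, which was not called in whole guts, 1.69 (SE 0.51, adjusted p = 0.0308). The difference lost its call for esg on leaving out mated library 1 or 2 or unmated library 1 or 4 (adjusted p from 0.0609 to 0.0716), and for Kr-h1 on leaving out mated library 2 or 3 or unmated library 4 (adjusted p from 0.054 to 0.0579). For Egfr it was lost without any of mated libraries 1 to 4 or without unmated library 1 or 4 (adjusted p from 0.0535 to 0.0919). Scaling to library totals ended it for esg and Egfr (adjusted p = 0.0778 and 0.0906). The Egfr difference was also lost with DESeq2's size factors and with a minimum count of 50 (adjusted p = 0.0535 and 0.0532). The Dl difference passed by DESeq2 and without unmated library 3 (adjusted p = 0.0411 and 0.0316). Fits of whole guts alone were not repeated without single libraries. Of 81 ribosomal protein genes 23 had a smaller fold change in progenitors and none a larger one, while of 34 genes of ribosome production 11 had a larger and 1 a smaller one.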

How the data were processed

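RNA had been extracted from sorted cells, and poly(A) RNA made into libraries with a directional kit, per the labels' protocols. The authors deposited whole-number read counts per gene. STAR, HTSeq and DESeq2 and the builds BDGP6 and dm6 are named in the submitters' processing notes, while tool versions and the strand setting are not among the details given there. Groups were taken from the sample titles. Of each progenitor library 0.0927% to 0.22% of counts lay in rows for transposable elements, which were left out. In the 2 tables read, 8 further columns of per-sample values were not used.

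Counts were fitted in R 4.3.3 with edgeR 4.0.16: filterByExpr (minimum count 10, minimum total 15), TMM scaling, robust quasi-likelihood F test, Benjamini-Hochberg adjustment over all genes tested, threshold 0.05. SE was computed from F, as the absolute fold change (log2) over the root of F. Progenitors were fitted alone. The difference from whole guts came from an interaction term over 16 libraries, and whole-gut values are from that material's own libraries. The procedure was tested on simulated data, where the share of false calls was above the nominal threshold and small changes were recovered less often than large ones. DESeq2 1.42.0, its size factors, upper quartile scaling, other filters, the replicate number as a block and leaving out each library in turn were alternatives. Scaling to library totals was added after the data had been seen.

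The rule for naming took set genes, the 10 highest and 10 lowest called genes among those at a mean log2 CPM of 3 or more whose groups did not overlap, 4 called members per list by adjusted p, and 5 genes per direction for the difference. A selection is printed. Members and lists (44) were chosen with earlier results of these data known. Replicate numbers did not pair the libraries: deviations of same-numbered libraries correlated at 0.259, 0.102, 0.033 and -0.129. Coordinates are 1-based, from the BDGP6.54 annotation, matched by gene identifier for 11080 of 11128 genes.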

Additional observations from a re-analysis of the deposited data

Results flagged for a closer look

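For 10 named genes the mating response differed between progenitors and whole guts by a test of the difference. They were picked as the 5 per direction with the smallest adjusted p of this difference among the named genes. That they pass the test was therefore set by the choice. The log2 fold change was larger in progenitors by 5.00 for Jon25Bii, 4.28 for CG31324, 3.75 for Alp10, 3.67 for Alp9 and 1.77 for CG10512. It was smaller in progenitors, with differences of -6.49 for tobi, -5.92 for CG11825, -2.76 for Cyp6g1, -2.65 for Cyp12a5 and -1.92 for Men. Adjusted p-values of these differences stand with the genes in the report.

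In 20 of 430 groups of 4 libraries looked at, 1 library of a named gene lay far from the others by Dixon's ratio at the 95% level. Chance gives about 1 in 20 such groups. Mated libraries that stood above the rest of their group were those of E(spl)malpha-BFM at 206 CPM, Gclm at 93.3 CPM, Hsp67Ba at 2.10 CPM, Sox21a at 474 CPM, Vinc at 365 CPM and asRNA:CR43481 at 3.97 CPM. Further mated libraries that stood apart were those of bnl at 11.8 CPM, mt:CoI at 3110 CPM and UQCR-11L at 0.451 CPM. In the unmated group, single libraries stood apart for Sox21a at 588 CPM, aos at 157 CPM, Dronc at 125 CPM, kuz at 434 CPM and Alp9 at 20.6 CPM. The same was seen for Cyp6g1 at 20.7 CPM, CG10512 at 19.6 CPM, Gcn2 at 85.4 CPM, MtnC at 15.8 CPM, Cyp6w1 at 5.20 CPM and UQCR-11L at 0.452 CPM.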

How the results depend on the processing

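DESeq2, its size factors, upper quartile scaling and both other filters gave 1447 to 2024 genes higher and 1596 to 2170 lower in mated progenitors. More genes were lower than higher in these, except under upper quartile scaling (2024 higher and 1820 lower). Leaving out 1 library at a time gave 828 to 2105 higher and 1420 to 2199 lower, and 493 to 1204 genes with a larger difference from whole guts. Without unmated libraries 1 and 4 together, 417 were higher and 885 lower. Scaling to library totals, chosen after the data had been seen, gave 3785 higher and 1238 lower, and 346 with a larger difference. With a replicate block, 1857 were higher and 1960 lower, and 679 and 1039 for the difference. The numbers do not pair the libraries, so this fit is given only for comparison.

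Of 196 called genes among the 214 tested genes printed, 118 of the 214 had the same call and direction in every setting. Scaled to library totals the sign turned for Act5C (0.19), E2f1 (0.063), EcR (0.17), Eip75B (0.005), Sod1 (0.14) and hep (0.13). Leaving out 1 library at a time, EcR ranged from -0.148 to 0.013 and N from -0.018 to 0.115. With library totals Act5C was called higher, and calls were gained by Atf6, Cdk1, Met, N, Sod2, gce, mira, pros and usp and lost by Atg4a, CG10407, Eip93F, Hr39, Ire1, MTF-1, MsrA, Non1, Pi3K92E, Sox100B, Sox21a, Wbp2, brp, btl, cnn, crc, fzr, kibra, kuz, pnt and vn. Without unmated libraries 1 and 4 together 67 of the 214 lost their call. Lost in this setting alone were those of Agpat3, CCHa2, CG43218, Cp18, Cyp12e1, E(spl)m3-HLH, FASN2, InR, Jheh2, Myc and PGRP-LF. The same held for Ppn, Raf, Rbf2, RpL4, Tsc1, UQCR-11L, pirk, scyl, serp, spdo and upd2. With the block 7 lost and 4 gained one. A minimum count of 50 ended the calls of Cyp6w1, Jon65Aiii, Kr-h1, mew and put. DESeq2's size factors ended those of Jon65Aiii and mew. Upper quartile scaling ended those of CG10407, E2f1, cnn and vn, and leaving out the filter those of CG10407, E2f1, Non1, cnn and vn. At library totals, lists with few or no members higher had 3 higher for JNK, 6 for glutathione transferases, 3 for UDP-glycosyltransferases, 3 for antioxidant genes, 3 for nutrient transporters, and 1 each for IMD and immediate early genes. The 4 libraries per group and the spread of the unmated ones limit what can be resolved: a decrease smaller than the shift of 0.26 between the scalings has no settled direction.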
